A study of Caenorhabditis elegans with 20 samples.

Results

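Transcripts of 10 DNA replication and cell cycle genes were followed in whole dauer larvae of *C. elegans*: the 6 subunits of the MCM replicative helicase (*mcm-2*, *mcm-3*, *mcm-4*, *mcm-5*, *mcm-6* and *mcm-7*), *cdk-1*, the cyclin genes *cye-1* and *cyb-1*, and the inhibitor gene *cki-1*. The genes were listed by name, and all 10 were found among the 46925 gene identifiers of the table of normalized counts. All 10 were also among the 17090 genes that were abundant enough to be tested, with a mean of at least 2 normalized counts. RNA-seq had been done to ask what changes in the dauer transcriptome when the transcription factor DAF-16/FoxO is taken away from the intestine. Every animal in the 20 libraries carried *daf-2(e1370)*, which impairs the insulin receptor and brings about dauer arrest, and *daf-16(ot853)*, the endogenous *daf-16* gene fused to mNeonGreen and a degron (AID).

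The auxin-inducible system needs 2 components, and they gave 4 conditions with 5 biological replicates each. Strain OH14654 had no TIR1. It was grown with 0.2% ethanol as the solvent control, called neither component here, or with 100 µM of the ligand 5-Ph-IAA, called 5-Ph-IAA alone. Strain OH17582 also carried the single-copy transgene *otSi2*, in which the intestinal *ges-1* promoter drives TIR1. It was grown with ethanol, called TIR1 alone, or with 5-Ph-IAA, the experimental condition, in which the tagged DAF-16 protein is degraded in the intestine. The degron acts on the protein, so *daf-16* mRNA does not check the depletion. Animals were raised at 25 °C for 3 days, each replicate pooled about 24000 of them, and animals that were not dauers had been picked off by hand. Each TIR1 status was 1 strain, so a difference between strains at another locus cannot be told apart from TIR1 itself.

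The 6 MCM proteins form a ring that is loaded on DNA at origins before S phase, a step called licensing, and that then unwinds DNA at the replication fork. Cyclins activate their kinase partners, cyclin E with CDK-2 at the entry into S phase and in endoreduplication, and B-type cyclins with CDK-1 at the entry into mitosis and meiosis. CKI-1, a relative of mammalian p27, blocks these kinases and holds worm cells out of the cycle. In dauer larvae division has stopped in the soma and the germ line. The intestine makes no new cells after hatching apart from a few nuclear divisions, and its nuclei raise their DNA content by endoreduplication, while the germ line and oocytes store large amounts of replication and cyclin mRNA.

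The libraries held 3989669 to 15585703 reads on genes, and a normalized count is the reads on a gene divided by the size factor of its library. The median was 8303396 reads with neither component, 11168993 with 5-Ph-IAA alone, 9790072 with TIR1 alone and 13972723 in the experimental condition. Replicate 5 of the experimental condition was the shallowest, with 21.4% of reads from genes for ribosomal RNA, a share of 1.78% to 5.52% in its sister libraries. In whole animals, fewer cells of a type and less RNA per cell cannot be told apart.

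*cyb-1*, the mitotic B-type cyclin, showed the clearest difference among the 10 genes. It was 1.35-fold higher in the experimental condition than with 5-Ph-IAA alone and 1.29-fold higher than with TIR1 alone, and its 5 experimental libraries lay above all 15 control libraries. *mcm-7* rose 1.18-fold and 1.24-fold. *mcm-2* and *cdk-1* rose against TIR1 alone, 1.15-fold and 1.16-fold, and did not pass the test against 5-Ph-IAA alone. The other 6 genes passed the test against neither control, and no gene of the 10 was called lower. In limma on log2(normalized count + 1), with calls at a Benjamini-Hochberg adjusted p under 0.05 over all genes tested and no fold cutoff, 2 of the 10 were called higher against 5-Ph-IAA alone. Over all genes tested, 11.3% were called higher and 8.37% lower in that comparison. Against TIR1 alone 4 of the 10 were called higher, beside 11.6% of all genes higher and 7.38% lower. Without experimental replicate 2 the first count was 4, and without TIR1 alone replicate 2 or 4 or experimental replicate 3 or 5 the second was 2. The median log2 fold change of the 10 was 0.12 and 0.14, beside -0.01 and -0.02 over all genes. The 2 comparisons share the experimental libraries, so they are not separate evidence. Quantile normalization moved the split of calls over all genes from 1938 higher and 1431 lower to 1748 and 1906 against 5-Ph-IAA alone, and from 1976 and 1261 to 1747 and 1786 against TIR1 alone.

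**Figure D1:**
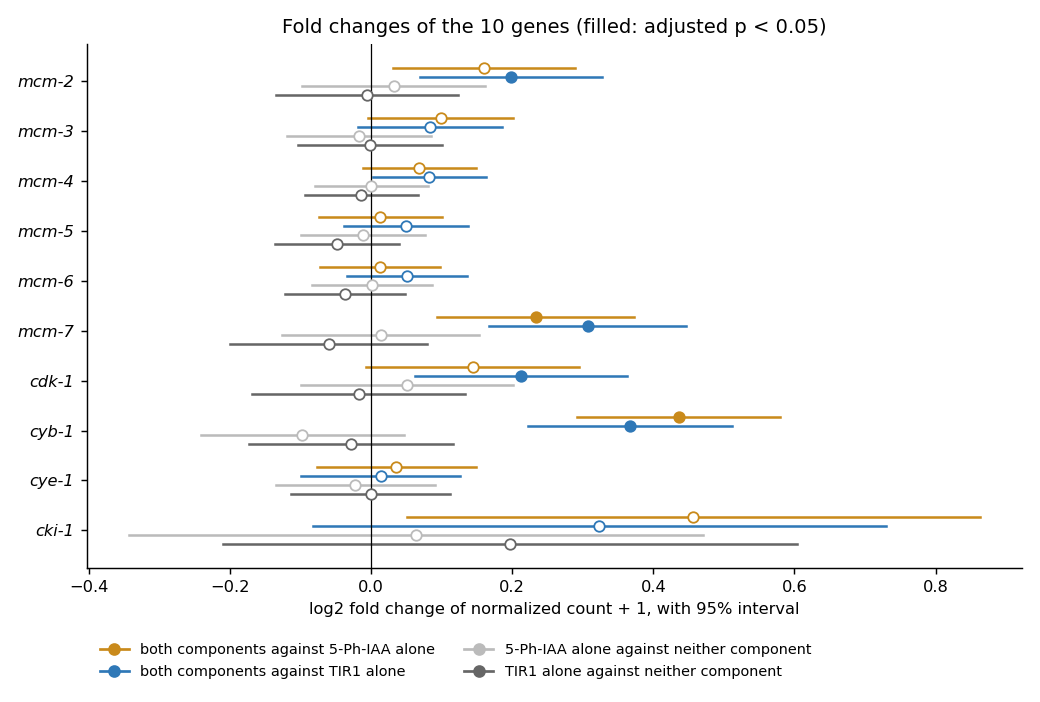
Log2 fold changes of normalized count + 1 for the 10 genes (x axis), with 95% intervals from limma as horizontal lines, in 4 comparisons given by colour. Filled points passed an adjusted p of 0.05. The filled points are *mcm-7* and *cyb-1* in both comparisons of the experimental condition and *mcm-2* and *cdk-1* against TIR1 alone, and every point of the comparisons of 1 component against neither is open.

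The helicase subunit genes *mcm-3*, *mcm-4*, *mcm-5* and *mcm-6* passed the test against neither control. *mcm-6* (WBGene00003158, chromosome III, 9794367 to 9798644, WBcel235) averaged 1331 ± 42.4 normalized counts with neither component, 1333 ± 76.5 with 5-Ph-IAA alone, 1297 ± 43.7 with TIR1 alone and 1343 ± 40.9 in the experimental condition (SD, n = 5). *mcm-5* (WBGene00003157, III, 4288264 to 4291266) averaged 1117 ± 31.7, 1109 ± 37.5, 1082 ± 53.3 and 1120 ± 52.2 in the same order. In both genes the 4 conditions overlapped. Against 5-Ph-IAA alone the log2 fold change of *mcm-6* was 0.01, with a 95% interval of -0.07 to 0.10, and that of *mcm-5* was 0.01, with an interval of -0.07 to 0.10. Against TIR1 alone both were at 0.05, with upper bounds of 0.14.

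*mcm-4* (WBGene00003156, I, 2318291 to 2321817) averaged 1239 ± 21.2, 1239 ± 40.9, 1228 ± 58.6 and 1300 ± 42.8 normalized counts, and *mcm-3* (WBGene00003155, V, 15056719 to 15059599) averaged 1069 ± 44.9, 1056 ± 40.6, 1067 ± 25.7 and 1134 ± 97.3. In each gene 3 of the 5 experimental libraries lay above all 15 controls and the other 2 lay among them. The log2 fold changes of *mcm-4* were 0.07 (limma, adjusted p = 0.249) and 0.08 (adjusted p = 0.150), against 5-Ph-IAA alone and TIR1 alone. Those of *mcm-3* were 0.10 (limma, adjusted p = 0.183) and 0.08 (adjusted p = 0.270). The intervals reached from -0.01 to 0.15 for *mcm-4* and from -0.0038 to 0.20 for *mcm-3* against 5-Ph-IAA alone. The fold of *mcm-3* passed the test, at 0.14 (limma, adjusted p = 0.0494), when replicate 5 of the experimental condition was left out.

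*mcm-7* (WBGene00003159, V, 4347166 to 4349768) was the subunit gene that rose against both controls. It had 880.1, 825, 875, 787 and 961 normalized counts in replicates 1 to 5 with neither component, 895, 865, 839.8, 879 and 882 with 5-Ph-IAA alone, and 822, 761, 769, 869 and 934 with TIR1 alone. The 5 experimental libraries had 964, 895, 1004, 1084 and 1205. Of these, 4 lay above the highest control, at 961, and replicate 2 lay at the level of the highest 5-Ph-IAA alone library. The log2 fold change was 0.23 ± 0.07 (SE) against 5-Ph-IAA alone (limma, adjusted p = 0.0147) and 0.31 ± 0.07 against TIR1 alone (adjusted p = 0.00168). The call against 5-Ph-IAA alone was lost without experimental replicate 5 (0.17, limma adjusted p = 0.0577).

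*mcm-2* (WBGene00003154, II, 12001509 to 12006625) gave 891, 926, 984, 925 and 937 normalized counts with neither component, 992, 989, 1007, 996 and 799.6 with 5-Ph-IAA alone, and 1010.03, 860.4, 981, 900.5 and 898 with TIR1 alone. The experimental libraries gave 1093, 999.96, 1143, 959.9 and 1144. Replicates 1, 3 and 5 lay above every control, while replicates 2 and 4 lay within the control range of 799.6 to 1010.03. The log2 fold change was 0.20 ± 0.06 (SE) against TIR1 alone (limma, adjusted p = 0.0261) and 0.16 ± 0.06 against 5-Ph-IAA alone (adjusted p = 0.0754). Leaving out any 1 of TIR1 alone replicates 2, 4 and 5 or experimental replicates 1, 3 and 5 took the adjusted p against TIR1 alone to 0.0560 to 0.0769 in limma. Under quantile normalization and under equal library totals *mcm-7* stayed called against both controls, and *mcm-2* was not called against either (limma, lowest adjusted p = 0.0528).

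**Figure D2:**
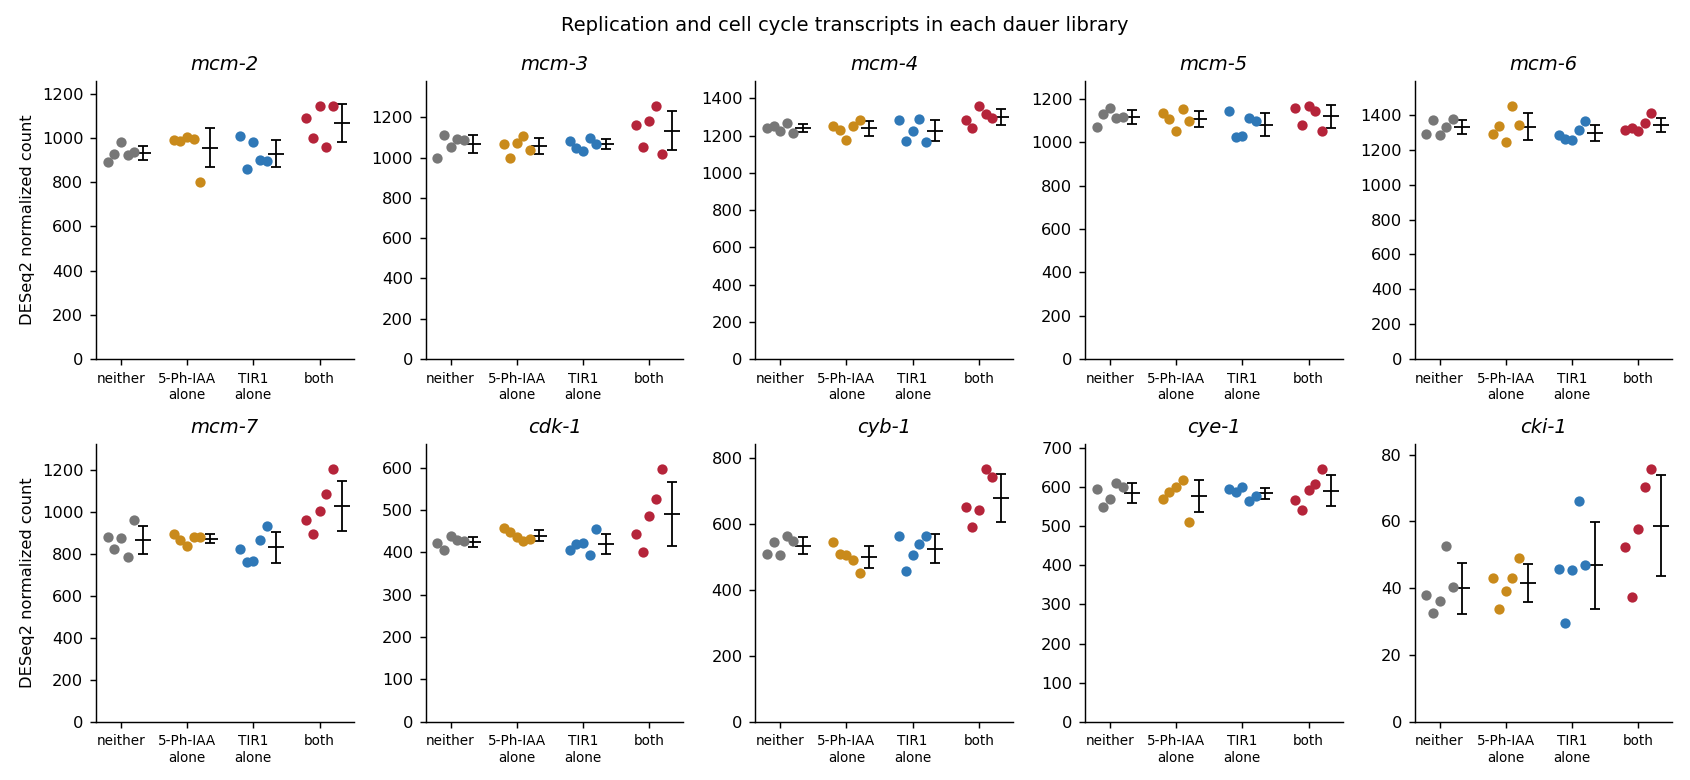
Normalized counts (y axis, from 0, a separate scale in each panel) of the 10 genes in the 20 libraries, 1 point per library in the order of replicate numbers within each condition, with the mean and SD beside them. The 5 experimental points of *cyb-1* (589 to 765) stand clear of the 15 controls (451 to 563), whereas those of *mcm-5*, *mcm-6* and *cye-1* lie among or next to them.

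The 2 cyclin genes differed from each other. *cye-1* (WBGene00000871, I, 6780799 to 6784397), which encodes cyclin E, had 594, 548, 569.9, 611 and 600.3 normalized counts with neither component, 569, 586, 601, 617 and 509 with 5-Ph-IAA alone, and 594, 586, 599, 565 and 577 with TIR1 alone. Its experimental libraries had 567, 540.04, 592, 609 and 646. The highest of these passed every control and the other 4 lay among the controls. The log2 fold change was 0.04 against 5-Ph-IAA alone, with a 95% interval of -0.08 to 0.15 (limma, adjusted p = 0.724), and 0.01 against TIR1 alone, with an interval of -0.10 to 0.13 (adjusted p = 0.905).

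*cyb-1* (WBGene00000865, IV, 10735216 to 10737177) had 507, 545, 505, 563 and 547 normalized counts with neither component, 543, 508, 504, 489 and 451 with 5-Ph-IAA alone, and 562, 456, 504, 538 and 561 with TIR1 alone. The experimental libraries had 650.5, 589, 640.2, 765 and 742. The lowest of them was above the highest control, a separation that 4.53% of all genes tested showed upward and 2.5% downward. The log2 fold change was 0.44 ± 0.07 (SE) against 5-Ph-IAA alone (limma, adjusted p = 4.26e-05) and 0.37 ± 0.07 against TIR1 alone (adjusted p = 0.000365). Over the 20 fits that left out 1 library each, the log2 fold change stayed within 0.39 to 0.48 and 0.32 to 0.42, and the call held in each of them (limma, highest adjusted p = 0.00199).

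*cdk-1* (WBGene00000405, III, 9747472 to 9748852), the kinase partner of the B-type cyclins, had 422, 405, 438, 428 and 427 normalized counts with neither component, 457, 448, 435, 426 and 431 with 5-Ph-IAA alone, and 404, 419, 423, 394 and 456 with TIR1 alone. The experimental libraries spread over a much wider range, with 442, 399.98, 486, 525 and 597. Replicates 3, 4 and 5 lay above every control, replicate 1 lay among the controls and replicate 2 lay near their lower end. The coefficient of variation was 15.5% in the experimental condition, where counting error alone gives 4.497%, and 2.86% to 5.56% in the 3 control conditions. The log2 fold change was 0.21 ± 0.07 (SE) against TIR1 alone (limma, adjusted p = 0.0419) and 0.14 ± 0.07 against 5-Ph-IAA alone, with a 95% interval of -0.01 to 0.29 (adjusted p = 0.187). The call against TIR1 alone was lost in 7 of the 20 fits without 1 library, among them those without experimental replicates 3, 4 and 5 and TIR1 alone replicates 1 to 4 (limma, highest adjusted p = 0.149). It was also lost under quantile normalization (adjusted p = 0.0617 in limma) and equal library totals (adjusted p = 0.118).

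*cki-1* (WBGene00000516, II, 7811240 to 7812105) is transcribed under the control of DAF-16 in starved newly hatched larvae. It was by far the least abundant of the 10, with 23 to 103 reads per library. Its normalized counts were 37.97, 32.7, 36.2, 52.5 and 40.4 with neither component, 43.2, 33.7, 39.1, 42.98 and 49.01 with 5-Ph-IAA alone, and 45.9, 29.5, 45.6, 66.1 and 46.9 with TIR1 alone. In the experimental libraries they were 52.3, 37.3, 57.8, 70.4 and 75.7, of which 4 lay above every 5-Ph-IAA alone library and 2 above every TIR1 alone library. The log2 fold change was 0.46, with a 95% interval of 0.05 to 0.86, against 5-Ph-IAA alone (limma, adjusted p = 0.112) and 0.32, with an interval of -0.08 to 0.73, against TIR1 alone (adjusted p = 0.285). The interval was the widest of the 10 genes and spanned folds of 1.04 to 1.82 against 5-Ph-IAA alone. The gene passed the test against 5-Ph-IAA alone without experimental replicate 2 (0.61, limma adjusted p = 0.0276).

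No gene of the 10 passed the test with a single component of the system. With 5-Ph-IAA alone against neither component, 0 of the 10 were called and 0 had an unadjusted p under 0.05 in limma, beside 0.0351% of all genes called higher and 0.00585% lower. The log2 fold changes ran from -0.10 for *cyb-1* to 0.06 for *cki-1*. With TIR1 alone against neither component 0 were called and 0 had an unadjusted p under 0.05 in limma, beside 0.164% of all genes higher and 0.439% lower. There the fold changes ran from -0.06 for *mcm-7* to 0.20 for *cki-1*. Both comparisons share the libraries with neither component. edgeR and DESeq2 on the recovered reads also called 0 of the 10 in each.

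Whether the experimental condition exceeded the sum of the 2 single components was tested with an interaction term. *cyb-1* passed this test at 0.46 ± 0.10 on the log2 scale (limma, adjusted p = 0.00203) and *mcm-7* at 0.29 ± 0.10 (adjusted p = 0.0498). The other 8 genes did not, and all 10 estimates were above 0. Over all genes tested 7.17% had an interaction above 0 that passed and 3.6% one below 0. The *mcm-7* interaction sat at the threshold and was lost in 15 of the 20 fits that left out 1 library (limma, highest adjusted p = 0.103), whereas that of *cyb-1* was kept in all 20 (highest adjusted p = 0.00521).

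Proportions within a library do not depend on the size factor, so 4 ratios between the genes were also compared, chosen after the values had been seen. The 8 tests were exact two-sided permutation tests with 5 libraries against 5, in which the smallest possible p is 0.00794. Adjustment over these 8 does not cover the choice of the ratios, so the p-values are a description. The ratio of *cyb-1* to *cye-1* ran from 0.778 to 0.994 in the 15 controls and from 1.08 to 1.26 in the experimental libraries, with no overlap. Its log2 difference was 0.40 against 5-Ph-IAA alone and 0.35 against TIR1 alone, each with an exact permutation p of 0.00794 and an adjusted p of 0.0212 over the 8 tests. *cyb-1* also rose relative to *cdk-1* against 5-Ph-IAA alone, by 0.29 (exact permutation p = 0.00794, adjusted p = 0.0212), and had a log2 difference of 0.15 against TIR1 alone (exact p = 0.0952). *mcm-7* relative to the geometric mean of the other 5 subunit genes averaged 0.767, 0.772 and 0.747 in the controls and 0.868 in the experimental condition. This difference was 0.16 against 5-Ph-IAA alone (exact permutation p = 0.0238, adjusted p = 0.0476) and 0.21 against TIR1 alone (exact p = 0.0476, adjusted p = 0.0635). *cki-1* relative to *cdk-1* did not pass the adjusted threshold in either comparison (exact permutation, adjusted p = 0.0635 and 0.619).

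Levels can be compared between genes once they are divided by exon length. In the 15 control libraries the 6 helicase subunit genes lay close together, at 511 ± 21.3 normalized counts per kb of exon for *mcm-6*, 472 ± 15.4 for *mcm-4*, 456 ± 17.3 for *mcm-5*, 396 ± 13.3 for *mcm-3*, 349.6 ± 23.1 for *mcm-7* and 332 ± 21.8 for *mcm-2* (SD, n = 15). The highest was 1.54 times the lowest. *mcm-6* was the highest of the 6 in 19 of the 20 libraries and *mcm-2* the lowest in 15. The means of *mcm-4* and *mcm-5* differed by about the spread between libraries, as did those of *mcm-7* and *mcm-2*. The genes were measured in the same libraries, so this spread does not judge their order within a library. The mean of *cdk-1*, at 361 ± 15.2 per kb, lay within the range of the subunit genes. The means of the cyclin genes lay below the lowest subunit gene, with *cyb-1* at 307 ± 21.4 and *cye-1* at 275 ± 12.96. *cki-1* stood apart at 52.9 ± 11.3, and the lowest helicase subunit gene was 6.29 times as high. In the experimental condition *mcm-7* reached 421 ± 48.7 and *cyb-1* 401 ± 43.7 per kb.

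**Figure D3:**
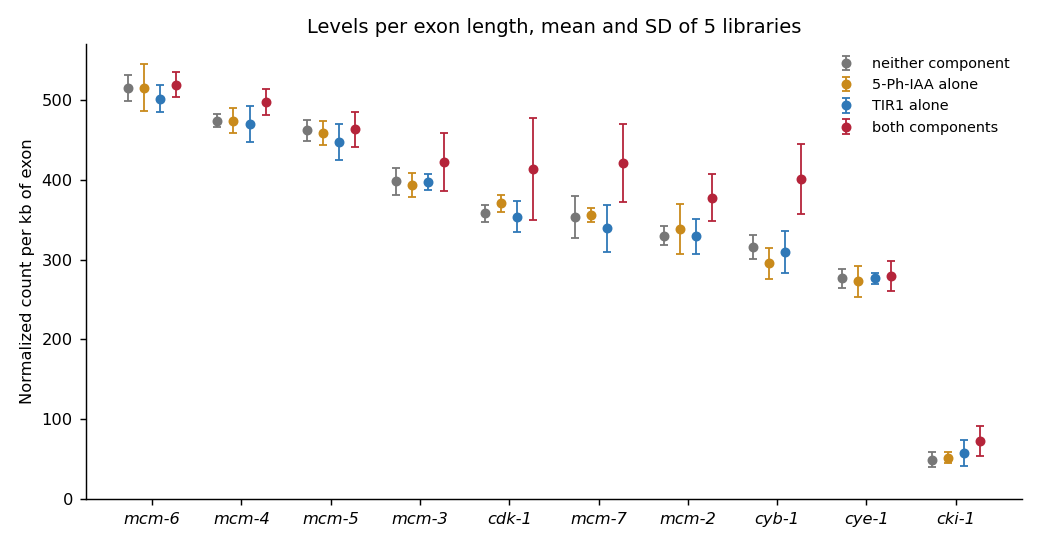
Normalized counts per kb of exon (y axis, from 0) for the 10 genes, ordered by their mean over the 15 control libraries. Points are means and bars SDs of 5 libraries per condition. *mcm-6* is the highest at 511 in the controls and *cki-1* the lowest at 52.9, and in the experimental condition *mcm-7* reaches 421 and *cyb-1* 401.

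Short stretches of 5 of the 10 genes lie in exons of a neighbour, and the strand setting of the counting was not given in the sources used here. The overlap was 73 bases for *mcm-3* (with *C25D7.16*), 18 for *mcm-7* (*F32D1.3*), 16 for *mcm-2* (*Y17G7B.23*), 15 for *mcm-4* (*ekl-7*) and 4 for *mcm-6* (*srxa-10*), out of exon lengths of 2449 to 2827 bases. *cyb-1*, *cye-1*, *cdk-1* and *cki-1* overlap no other exon.

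Markers of oocytes moved with the experimental condition. An oocyte list of 20 genes holds eggshell, yolk receptor and maternal RNA-binding genes such as *cbd-1*, *rme-2* and *oma-1*. All 20 were called higher against both controls in limma, beside 11.3% and 11.6% of all genes tested. The median log2 fold changes of the 20 were 1.15 and 1.09. Their summed normalized count was 4089 to 6709 with neither component, 4033 to 4695 with 5-Ph-IAA alone, 4084 to 6281 with TIR1 alone and 6194 to 13781 in the experimental condition. The experimental mean was 2.36 and 2.21 times the control means (exact two-sided permutation p = 0.00794 and 0.0159, n = 5 each). The smallest p possible in these exact permutation tests is 0.00794. The marker lists were chosen with earlier results of these data known. The p-values of marker sums, here and below, were not adjusted over the lists and are a description. In experimental replicates 1 to 5 the sums were 8975, 6194, 9363, 13632 and 13781. Replicates 4 and 5 were thus the highest in oocyte markers and also in *cyb-1*, *mcm-7*, *cdk-1* and *cki-1*, and replicate 2 was the lowest in all of these. *cye-1* followed the same order of extremes within its narrower range. The other 5 subunit genes followed it in part or not at all. *mcm-2* was lowest in replicate 4, at 959.9, and highest in replicate 5, at 1144. *mcm-3* and *mcm-5* were lowest in replicate 5, at 1019 and 1051, and highest in replicates 4 and 3, at 1255 and 1166. *mcm-4* was lowest in replicate 2, at 1242, and highest in replicate 3, at 1358. *mcm-6* was lowest in replicate 3, at 1308, and highest in replicates 4 and 5, at 1355 and 1409.

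**Figure D4:**
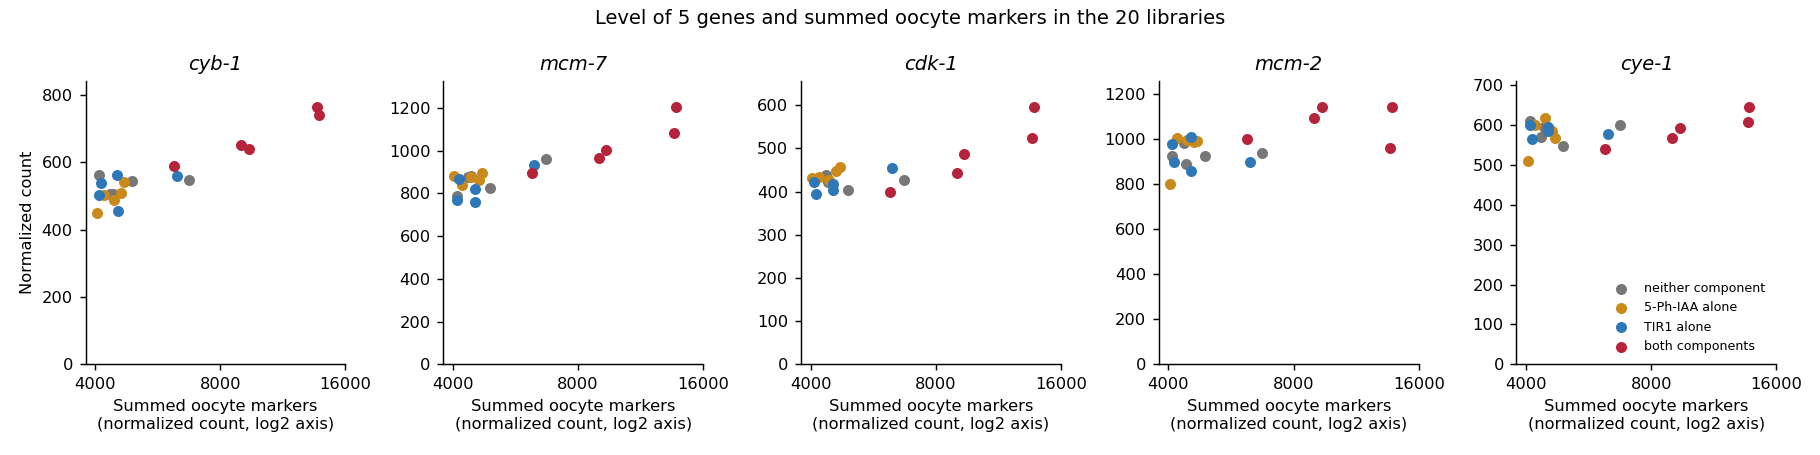
Normalized counts (y axis, from 0) of *cyb-1*, *mcm-7*, *cdk-1*, *mcm-2* and *cye-1* against the summed normalized count of 20 oocyte markers (x axis, log2 scale) in the 20 libraries, coloured by condition. The experimental libraries, with oocyte sums of 6194 to 13781, extend to the right, and the 2 at the right end hold the highest *cyb-1*, *mcm-7* and *cdk-1*.

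With the log2 of the oocyte sum as a covariate in limma, 0 of the 10 genes were called against either control. Of the 17090 genes tested, the same fit called 542 higher and 476 lower against 5-Ph-IAA alone, beside 1938 and 1431 without the covariate. Against TIR1 alone it called 688 and 410, beside 1976 and 1261. At such small shares, 0 calls among 10 genes do not set these genes apart. With the covariate, *cyb-1* stood at 0.13 (limma, adjusted p = 0.609) and 0.08 (adjusted p = 0.774). *mcm-7* stood at -0.14 (limma, adjusted p = 0.444) and -0.04 (adjusted p = 0.879). The covariate itself differed between the conditions, so this fit also takes away what the condition and the sum share, and the part of oocyte RNA in the fold changes was not tested. Within the 15 control libraries, centred by condition, the strongest of 10 relations with the oocyte sum was that of *mcm-7*, with a Pearson r of 0.72 (permutation p = 0.0181, adjusted p = 0.181) and a Spearman rho of 0.41 (permutation p = 0.181, adjusted p = 0.612). Without the 2 libraries farthest from the median, replicate 5 of neither component and of TIR1 alone, r fell to 0.23, so the relation rests on them. For *cyb-1* r was 0.37 (permutation p = 0.205, adjusted p = 0.410) and rho 0.33 (permutation p = 0.250, adjusted p = 0.624). No relation passed the adjustment over the 10 genes.

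Other markers moved unequally. A list of 16 germline stem cell and P granule genes changed little in size as a whole. In limma 3 were called higher against 5-Ph-IAA alone and 2 against TIR1 alone, 18.8% and 12.5% beside 11.3% and 11.6% of all genes tested. The 16 genes had median log2 fold changes of 0.04 and 0.02. Their summed level was 13147 to 14107 in the controls, 13289 to 13433 of it with 5-Ph-IAA alone, and 13656 to 14408 in the experimental condition. The experimental mean of this sum was 1.06 and 1.03 times the control means (exact two-sided permutation p = 0.00794 and 0.0873). With the log2 of this sum as a covariate, an alternative added after the data were seen, *cyb-1* had log2 fold changes of 0.29 (limma, adjusted p = 0.117) and 0.29 (adjusted p = 0.0177), and *mcm-7* 0.12 (adjusted p = 0.641) and 0.25 (adjusted p = 0.0428). Of 10 intestine markers 9 and 10 were called higher in limma, beside 11.3% and 11.6% of all genes tested. The intestine marker sums were 11709 to 12768 in the controls and 18531 to 20135 in the experimental condition. All 6 yolk protein genes were called higher in both comparisons, beside the same shares. Their sum ran from 0.991 to 14135 in the controls and from 8617 to 53264 in the experimental condition.

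Sperm and embryo markers were scarce. Of 36 sperm markers 15 were tested, and 10 and 6 of them were called higher, beside 11.3% and 11.6% of all genes tested. The filter used the mean over all 20 libraries. Genes such as *msp-77*, at 1.44 in the controls and 7.78 in the experimental condition, passed it only through the experimental libraries. Such genes favour higher calls, so the counts are a description. The sums of the sperm markers were 247 to 423 in the controls and 338 to 451 in the experimental condition. *spe-15*, at a mean of 193 in the controls, made up most of the control sums. Of 12 early embryo markers 3 were tested, of which 1 was called higher in both comparisons and 1 lower against 5-Ph-IAA alone. Among the tested ones, *sdz-28* passed the filter only through the experimental libraries. The means of *med-1*, *end-3* and *hlh-27* were at most 0.489 normalized counts in the controls and 0 in the experimental condition, while that of *sdz-28* was 0.637 and 10.1, and that of *ceh-51* 0.468 and 2.48. The sums of this list were nearly all *pha-4*, at 719 in the controls. Of 5 dauer markers 1 was called higher and 1 lower in each comparison. The sum of the 5 averaged 5752 ± 705 with neither component and 5993 ± 777 with 5-Ph-IAA alone (SD, n = 5). It averaged 7728 ± 1789 with TIR1 alone, the highest, and 5347 ± 825 in the experimental condition. The experimental mean was 0.892 times that with 5-Ph-IAA alone (exact two-sided permutation p = 0.230). It was 0.692 times that with TIR1 alone (exact p = 0.0159), a control that lay above the other controls. Of 3 adult cuticle collagens 2 were tested and 1 was called higher in each comparison. Their sum ran from 0.961 to 319 in the controls and from 179.8 to 629 in the experimental condition, nearly all of it *col-19*, and its experimental mean was 16.5 and 5.94 times the control means (exact two-sided permutation p = 0.00794 and 0.0159). The part of any of these in the values of the 10 genes was not tested.

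The wider machinery was read from 3 lists of genes chosen by role. The replication licensing and fork list had 47 genes tested, of which 7 were called higher against 5-Ph-IAA alone and 5 against TIR1 alone (limma), 14.9% and 10.6%, shares near those of all genes, with median log2 fold changes of 0.04. The count of 7 was 2 to 4 without any 1 of 5-Ph-IAA alone replicates 1, 2 and 5 or experimental replicates 3, 4 and 5. In this list 0 and 1 were called lower, the 1 being *ddb-1*, a component of a ubiquitin ligase that acts on CDT-1 (-0.14, adjusted p = 0.0478). *rnr-2*, the small subunit of ribonucleotide reductase, which makes deoxynucleotides, had the largest change of those named, from 256 ± 24.8 with 5-Ph-IAA alone and 257 ± 29.5 with TIR1 alone to 391 ± 71.3 normalized counts, 0.60 and 0.59 on the log2 scale (limma, adjusted p = 0.000129 and 0.000161). The large subunit *rnr-1* passed against TIR1 alone (0.17, limma adjusted p = 0.00861) and not against 5-Ph-IAA alone (0.12, adjusted p = 0.0759).

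*pcn-1*, the sliding clamp PCNA, rose by 0.15 and 0.30 on the log2 scale (limma, adjusted p = 0.0404 and 8.50e-05). *top-2*, topoisomerase II, rose by 0.15 and 0.14 (limma, adjusted p = 0.00246 and 0.00779), and *pola-1*, the catalytic subunit of the polymerase that primes DNA synthesis, by 0.12 and 0.12 (adjusted p = 0.0311 and 0.0435). *cdt-1* and *cdc-6*, which load the ring, and the geminin gene *gmn-1*, whose product inhibits CDT-1, did not pass the test. *cdt-1* had log2 fold changes of -0.03 and -0.01, *cdc-6* of -0.0039 and 0.00097, and *gmn-1*, at about 50 to 60 normalized counts, of 0.11 and 0.08 (limma, lowest adjusted p of the 3 genes 0.714). *orc-1*, a subunit of the origin recognition complex, named after its values were seen, passed against 5-Ph-IAA alone (0.20, limma adjusted p = 0.0352) and not against TIR1 alone (0.05, adjusted p = 0.642).

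In the cyclin and CDK list, 8 of 34 genes tested were called higher against 5-Ph-IAA alone and 10 against TIR1 alone (limma), 23.5% and 29.4% beside 11.3% and 11.6% of all genes tested, with medians of 0.06 and 0.09 and 0 called lower. Both counts include *cdc-25.3*, which passed the filter on low values only through the experimental libraries. They also include *cyb-2.1* and *cyb-2.2*, which are not separate calls if their reads are shared. With the oocyte sum as covariate 0 genes of this list, and 0 of the replication list, were called higher in either comparison (limma). Of the 17090 genes tested, 542 and 688 were. *cyb-3*, another mitotic B-type cyclin, went from 519 ± 33.4 and 507 ± 60.4 to 828 ± 125 normalized counts, 0.66 and 0.70 on the log2 scale (limma, adjusted p = 4.56e-06 and 1.90e-06), and its experimental libraries, at 649 to 973, lay above all controls. *cya-1*, cyclin A, named after its values were seen, rose by 0.28 and 0.30 (limma, adjusted p = 0.0312 and 0.0211). *cyb-2.2* rose by 0.72 and 0.68 (limma, adjusted p = 9.70e-05 and 0.000195) and *cyb-2.1* by 0.37 and 0.42 (adjusted p = 0.0373 and 0.0172). These 2 genes are near-identical copies, so the division of reads between them is uncertain.

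*fzy-1*, the CDC20 activator of the anaphase-promoting complex, rose by 0.26 and 0.35 (limma, adjusted p = 0.00789 and 0.000587) with no overlap with the controls. *cdc-25.3*, a CDC25-type phosphatase gene, had few reads, 0 to 8.08 normalized counts in the controls and 3.06 to 32.0 in the experimental libraries, so its log2 fold changes of 3.40 and 3.55 depend on the pseudocount. Of the genes named for their role, 6 passed against neither control. *cdk-2*, the partner of cyclin E, had 0.07 and 0.08, *cyd-1*, cyclin D, 0.02 and 0.20, the second inhibitor gene *cki-2* 0.06 and 0.10, the retinoblastoma homologue *lin-35* 0.08 and 0.03, and the E2F and DP genes *efl-1* and *dpl-1* -0.02 and 0.04, and 0.02 and 0.01 (limma, lowest adjusted p 0.183). *cdk-4*, at 16.4 ± 6.92 normalized counts with TIR1 alone and 30.6 ± 2.36 in the experimental condition, passed against TIR1 alone (0.97, limma adjusted p = 0.00911) and not against 5-Ph-IAA alone (0.27, adjusted p = 0.537).

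In the mitosis and chromosome list, 8 and 6 of 51 genes tested were called higher and 1 lower in each comparison (limma), 15.7% and 11.8% higher, shares near the 11.3% and 11.6% of all genes tested, with medians of 0.06 and 0.05. The count of 8 was 2 to 5 without any 1 of 5-Ph-IAA alone replicates 4 and 5 or experimental replicates 1, 3 and 4. *spd-5*, a scaffold of the centrosome, rose by 0.20 and 0.19 with no overlap with the controls (limma, adjusted p = 0.00143 and 0.00307). *tpxl-1*, the activator of Aurora A, rose by 0.16 and 0.26 (adjusted p = 0.0190 and 0.000224 in limma), and *bub-1*, a kinetochore kinase, by 0.12 and 0.13 (adjusted p = 0.0408 and 0.0288). The gene called lower was the formin *cyk-1*, which builds actin filaments for cytokinesis and is also used outside division. It went from 2774 ± 81.3 with 5-Ph-IAA alone and 2471 ± 150.2 with TIR1 alone to 1804 ± 62.2 normalized counts (-0.62 and -0.45, limma adjusted p = 2.63e-11 and 7.91e-09).

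**Figure D5:**
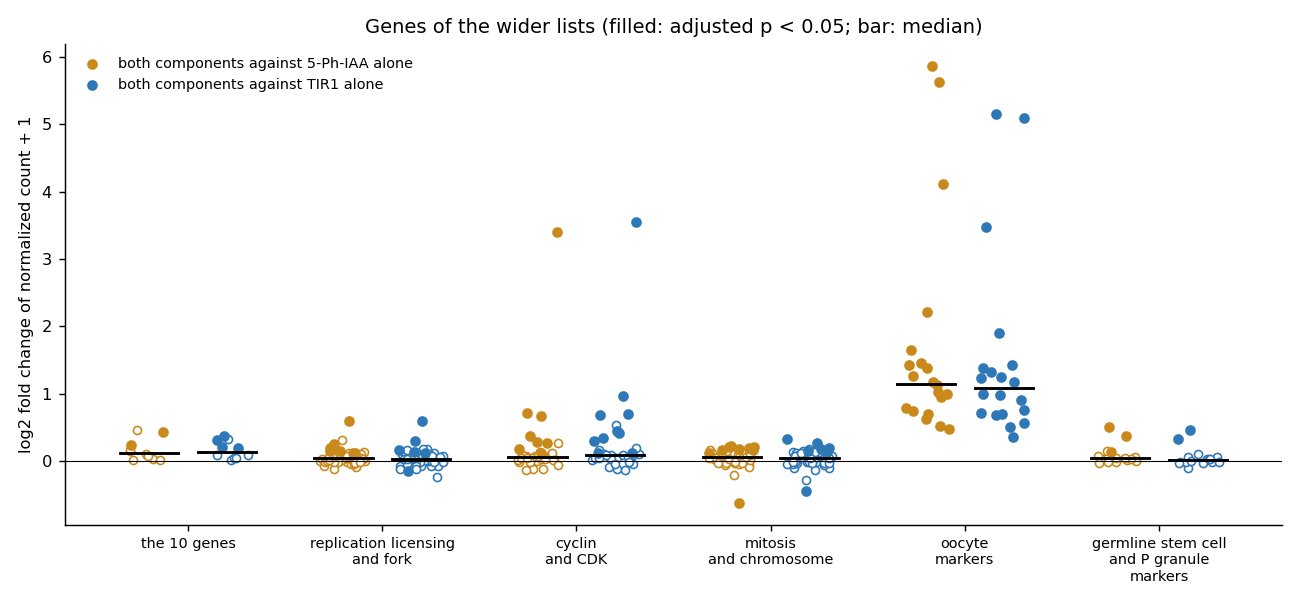
Log2 fold changes of normalized count + 1 (y axis) for each tested gene of the 10 genes, the 3 wider lists, the oocyte markers and the germline stem cell and P granule markers, against 5-Ph-IAA alone and TIR1 alone by colour. Filled points passed an adjusted p of 0.05 in limma and horizontal bars are medians, which are 0.12 and 0.14 for the 10 genes, at most 0.09 for the 3 lists and 1.15 and 1.09 for the oocyte markers.

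The 10 genes also varied from library to library within conditions, where the treatment is held fixed. After removal of the condition means the highest Pearson correlation over the 20 libraries was that of *mcm-7* with *cdk-1*, at 0.72, followed by *mcm-3* with *mcm-5* at 0.66 and *cyb-1* with *cki-1* at 0.62. *mcm-7* with the other subunits gave 0.51 for *mcm-6* and -0.02 to 0.12 for the rest, and *cyb-1* with *cdk-1* gave 0.59. The points share their library and its size factor, and these correlations are a description. *cdk-1* and *mcm-7* varied most in the experimental condition, with coefficients of variation of 15.5% and 11.6%, so its 5 libraries weigh most in their correlation. The variation between replicates was above the counting error in all 4 conditions for 3 of the 10 genes.

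Over 9706 genes with a mean of at least 50 normalized counts, the 5 whose level within conditions was most like the mean log2 level of the 6 helicase subunit genes were *aco-1* (r = 0.81), *gfat-1* (0.81), *cit-1.2* (0.78), *vps-15* (0.74) and *col-142* (0.74), over the 20 libraries. None of them is a gene of the replication list. *aco-1* encodes an aconitase and *gfat-1* an enzyme of the hexosamine pathway, and *col-142* is a collagen gene. Of the 5, 4 were called higher against both controls and *cit-1.2* was not called. The log2 fold changes were 0.82 and 0.83 for *aco-1*, 0.45 and 0.44 for *gfat-1*, 0.21 and 0.22 for *vps-15*, 3.18 and 2.097 for *col-142*, and -0.02 and -0.01 for *cit-1.2* (limma, highest adjusted p of the first 4 genes 0.00376).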

How the data were processed

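The deposited table holds signal values, the authors' normalized counts, 1 column per library: on Galaxy, reads were checked with FastQC, trimmed with Trimmomatic, aligned with STAR, counted on genes with featureCounts and divided by DESeq2 size factors. Tool versions and the strand setting are not given in the sources used here. The 4 conditions and 5 replicates were taken from the sample labels. The members and gene lists were chosen with earlier results of these data known. The genes named from the lists are the 4 with the smallest adjusted p against 5-Ph-IAA alone among those called the same way against both controls, and 13 genes of defining role. Genes called lower or set beside a named gene (*ddb-1*, *cyb-2.1*, *orc-1*, *cya-1*) were named after their values were seen.

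Differences were tested by limma (3.58.1, R 4.3.3) after the transformation log2(normalized count + 1), with a variance trend, 1 mean per condition over the 20 libraries and 17090 genes with a mean of at least 2. Fold changes are on that scale and understate changes of low genes. Dividing each column by the value of 1 read (0.612 to 2.91) gave whole reads for 100% of values within 0.01 reads, and edgeR 4.0.16 on these reads called 2067 genes higher and 1479 lower against 5-Ph-IAA alone. DESeq2 1.42.0, other pseudocounts (0.5 and 5), filters, scalings, covariates and left-out libraries were alternatives. The fits were tested on simulated data. Replicates differed by more than counting error (lowest chi-square per degree of freedom 3.00). Of 46925 identifiers, 46921 were found in the WBcel235 annotation, which gave positions and exon lengths; the alignment used WormBase release WS284, the same assembly. Promoter and protein sequences were not used here, and a planned search for promoter motifs was not run.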

Additional observations from a re-analysis of the deposited data

Results flagged for a closer look

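The *mcm-2* value of 5-Ph-IAA alone replicate 5, 799.6 normalized counts, lay far below the other 4 libraries of that condition, at 989 to 1007. Without this library the log2 fold change of *mcm-2* against 5-Ph-IAA alone was 0.10 (limma, adjusted p = 0.266), beside 0.16 with it. The summed oocyte markers of TIR1 alone replicate 5, 6281 normalized counts, lay above the others of that condition, at 4084 to 4528. The summed yolk protein genes stood out in 2 control libraries, with 14135 normalized counts in replicate 5 of neither component, where the others had 87.5 to 2656, and 8287 in TIR1 alone replicate 5, where the others had 0.991 to 1358. In all, 56 groups of 5 libraries were examined for a library far from the rest and 4 were found. Chance gives about 1 in 20.

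For *cyb-1* and *mcm-7* the interaction of 5-Ph-IAA and TIR1 passed the test. It was 0.46 on the log2 scale for *cyb-1* (limma, adjusted p = 0.00203) and 0.29 for *mcm-7* (adjusted p = 0.0498). The *mcm-7* interaction was called in 12 of 34 fits, the reported one included, and was lost in 15 of the 20 without 1 library. With the oocyte sum as covariate it was -0.10. All 5 experimental libraries of *cyb-1* and 4 of 5 of *mcm-7* lay above the 15 controls.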

How the results depend on the processing

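With a 1.5-fold cutoff added, 0 of the 10 genes were called in either comparison or the interaction. The highest called fold was 1.35 against a control and 1.38 in the interaction, both for *cyb-1*. Of all genes tested, 1159 stayed called higher against 5-Ph-IAA alone, 1130 against TIR1 alone and 892 in the interaction. That cutoff left 1, 3 and 0 genes higher against 5-Ph-IAA alone in the replication, cyclin and mitosis lists, 1, 4 and 0 against TIR1 alone, and 0 lower in the replication and mitosis lists against TIR1 alone. With the oocyte sum as covariate the list counts were 0, 0 and 1 higher in each comparison and 0 lower in the replication list. Of the 10 genes 0 were called anywhere, beside 542 and 688 of the 17090 genes tested called higher, a small share. *mcm-7* then changed sign against 5-Ph-IAA alone (-0.14), TIR1 alone (-0.041) and in the interaction (-0.10), as did *cdk-1* against TIR1 alone (-0.13). With the germline stem cell and P granule sum, added after the data were seen, 0 and 2 of the 10 were higher and 1 passed the interaction, with 0, 1 and 0 and then 2, 5 and 3 list genes higher and 0 lower in the replication list. Of all genes tested, 732 and 1374 were then called higher. Equal totals gave 2 of the 10 against TIR1 alone, 1 in the interaction, 1, 4 and 1 and then 2, 6 and 2 list genes higher, and 0 lower in the replication list. The shallow experimental replicate 5 had the largest share of ribosomal RNA reads, which enters those totals. Quantile normalization gave 2 against TIR1 alone and 1 in the interaction, 3 replication and 5 mitosis genes higher and 1 cyclin list gene lower against 5-Ph-IAA alone. Without a filter on low values 1 passed the interaction, 3 replication and 5 mitosis genes were higher against 5-Ph-IAA alone and 0 lower in the replication list against TIR1 alone. A pseudocount of 0.5 left 1 in the interaction, fitting the compared conditions by themselves left 4 replication genes higher against 5-Ph-IAA alone, and edgeR left 0 replication genes lower against TIR1 alone. Apart from the construction stated, the cause was not tested.

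Leaving out number 5 in all 4 conditions, added after the data were seen, gave 2 of the 10 against TIR1 alone, 1 in the interaction, 2 replication and 4 mitosis genes higher against 5-Ph-IAA alone and 3 replication genes against TIR1 alone. Without 1 library at a time the counts of the 10 ran from 2 to 4 against 5-Ph-IAA alone (4 without experimental replicate 2), from 2 to 4 against TIR1 alone (2 without TIR1 alone replicate 2 or 4 or experimental replicate 3 or 5) and from 1 to 2 in the interaction. The list counts ran from 2 to 8, 6 to 8 and 2 to 8 higher against 5-Ph-IAA alone and 4 to 6, 7 to 10 and 4 to 8 against TIR1 alone. Lower calls ran from 0 to 1 in the cyclin list against 5-Ph-IAA alone and the replication list against TIR1 alone. The lowest replication count, 2, came without 5-Ph-IAA alone replicate 5, and the lowest mitosis count, 2, without that library or experimental replicate 4. Of 1690 log2 fold changes of the 10 genes under an alternative, 1627 kept their side of the threshold with no called value changing sign, 53 lost a call, 6 gained one and 4 reversed, and 103 changed sign with neither value called.

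Replicate numbers were not taken to pair the libraries, since the labels name no shared batch: same-numbered libraries of different conditions had correlations of -0.098 to 0.25 in their deviations from the condition means, with 3 of 30 over 0.1, though 13 of 20 libraries matched their own number best. Blocking on the replicate number moved the calls over all genes from 1938 higher and 1431 lower to 2262 and 1801 against 5-Ph-IAA alone. For TIR1 alone against neither component they went from 28 higher and 75 lower to 162 and 326. The block fit called 4 of the 10 higher against 5-Ph-IAA alone. The added ones were *mcm-2* (limma, adjusted p = 0.0385) and *cki-1* (adjusted p = 0.0231), so these calls depend on whether the numbers pair the libraries.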
